A study of Mus musculus with 15 samples.

Results

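B4galnt2 and 9 other genes grouped with mucin-type glycosyltransferases were examined in the cecum of mice whose gut bacteria had been depleted with antibiotics. Not all of them build mucin-type glycans directly: B4galnt1 and St6galnac6 act on glycolipids, and C1galt1c1 encodes a chaperone. The genes were B4galnt2, B4galnt1, Fut2, Fut4, C1galt1, C1galt1c1, Gcnt1, Gcnt3, B3gnt6 and St6galnac6, and they are 10 of the 45804 genes with an unrepeated symbol in the deposited table. They were found by their symbols, and B4galnt2 was chosen because earlier work on the same table had shown its rise. The difference of these 10 genes between the groups is therefore given as a description, without a test. The study asked how antibiotic-induced microbiome depletion (AIMD) changes the metabolism of mice fed normal chow. Male wild-type C57BL/6 mice, 20 weeks old per the labels, received a cocktail of amphotericin B, neomycin, metronidazole, vancomycin and ampicillin by oral gavage for 30 days (AIMD, n = 7) or water by the same route (vehicle, n = 8). The age at which gavage began, as the methods give it, falls short of 20 weeks when 30 days are added. Mice shared cages, the sources used here do not say which did, and each mouse is counted as its own. The microbiome was reduced and not removed, which limits AIMD as a model of life without bacteria.

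Mucins and other secreted or membrane proteins of the gut carry O-linked glycans, chains of sugars that start with N-acetylgalactosamine (GalNAc) on serine or threonine. The next sugar decides the core: galactose gives core 1, which branches into core 2, and N-acetylglucosamine gives core 3, which is common on colonic mucin. The chains are then extended and capped with fucose, sialic acid, sulfate or a further GalNAc, and the caps serve as binding sites and food for gut bacteria.

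Each value is an FPKM, which divides the reads of a gene by its length and by a factor for the library. That factor did not follow the reads on genes. The mucin gene Muc2 was 83.5 FPKM from 3073 reads in vehicle replicate 5 and 81.7 from 2548 in vehicle replicate 8. These mice had 6486310 and 4372415 reads on genes. Size factors by median of ratios were 1.01 in every mouse, so the values came already scaled alike. Differences were fitted by limma as log2(FPKM + 0.5), which understates the change of genes with low FPKM, and p-values were adjusted over the 11971 genes that reached 0.5 FPKM in 7 or more mice. Reads on genes came to between 8679678 and 18108581 in AIMD mice and between 4372415 and 14405945 in vehicle-treated mice. An adjusted p under 0.05 in either direction was found for 36.0% of the tested genes, 19.4% higher and 16.6% lower in AIMD mice, and the median log2 fold change was 0.01. Epithelial and large intestine markers were high in every mouse, with summed FPKM of 3810 to 6959 and of 18573 to 30663. Small intestine markers summed to over 100 FPKM in AIMD replicate 6 (260) and in vehicle replicates 5, 7 and 8 (1064, 1083 and 1755), most of it Fabp6, a bile acid binding protein of the ileum. In these 4 mice Sis and Defa24 were also higher than in the other 11, at 2.33 to 4.62 against 0 to 0.552 FPKM and at 5.45 to 9.27 against 0 to 1.72. Apoa4 (0.673 to 9.95 against 0 to 3.65) and Lyz1 (9.66 to 20.5 against 3.92 to 24.9) overlapped, and Lct and Gata4 stayed at or under 0.143 in every mouse. Markers of enteric neurons and glia summed to 2.47 to 4.16 in AIMD mice and 4.56 to 74.9 in vehicle-treated mice, and those of smooth muscle to 156 to 588 and 399 to 2201. All 4 tested neuron and glia markers, 1 of 5 smooth muscle markers, 1 of 6 immune markers and 0 of 4 endothelial markers were lower in AIMD mice by the same test, and 0 of these were higher. The part of these markers in the results was not tested, except where values without the 4 mice with high small intestine markers are given. In whole cecum, fewer cells of a type and less RNA per cell cannot be told apart.

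Of the 10 genes, B4galnt2 and C1galt1 were higher and B3gnt6 was lower in every AIMD mouse than in every vehicle-treated mouse, and the groups overlapped for the other 7. Among all genes tested, 8.57% had groups that did not overlap, 5.27% with AIMD higher and 3.30% with AIMD lower. All 10 genes passed the filter on low values. Their median log2 fold change was 0.08, and their summed FPKM ranged from 477 to 691 in AIMD mice and from 350 to 471 in vehicle-treated mice.

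**Figure D1:**
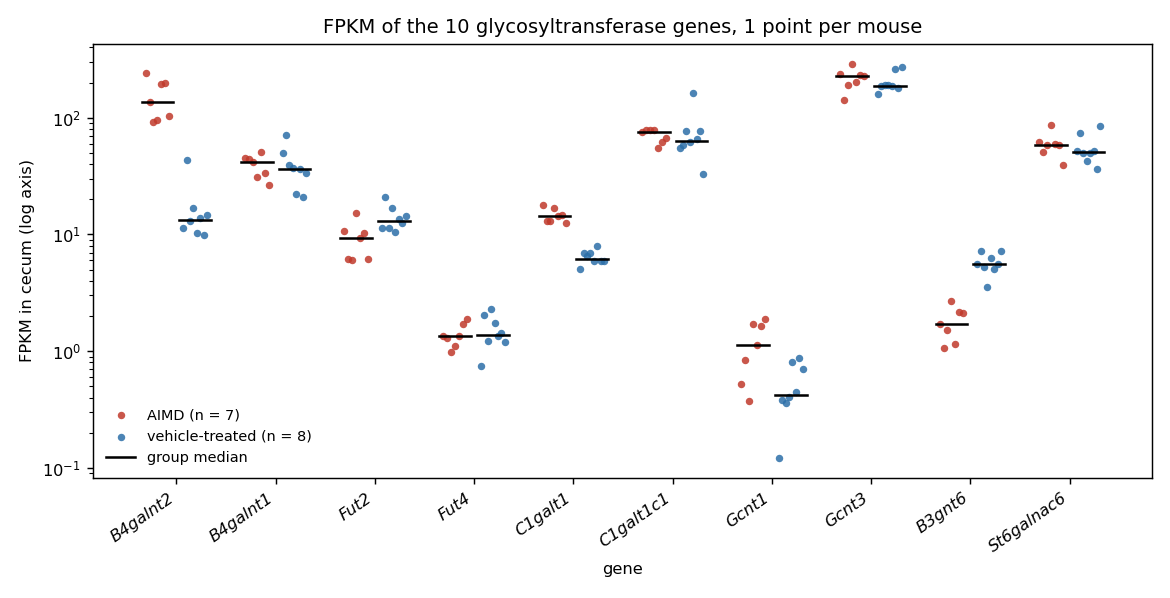
FPKM (log axis) of each of the 10 genes in each of 7 AIMD and 8 vehicle-treated mice, with the group median as a black line. The groups separate for B4galnt2 (lowest AIMD mouse 92.2, highest vehicle-treated mouse 43.8), C1galt1 (12.6 and 7.90) and, in the other direction, B3gnt6 (highest AIMD mouse 2.69, lowest vehicle-treated mouse 3.53).

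B4galnt2 encodes the enzyme that adds a terminal GalNAc to sialylated chains to make the Sda antigen, a cap of intestinal glycans. The gene is on chromosome 11, minus strand, from 95865943 to 95914891 on GRCm38 in GENCODE M21, with 11 exons in its 1 annotated transcript. Its FPKM in AIMD mice was 92.2 in the lowest mouse, 136 in the median mouse and 240 in the highest. In vehicle-treated mice it was 9.93 in the lowest, 13.3 in the median and 43.8 in the highest mouse. Vehicle replicate 2 held the value of 43.8, and the other 7 vehicle-treated mice lay between 9.93 and 16.8. Means were 151 ± 59.0 (SD, n = 7) and 16.7 ± 11.2 (SD, n = 8), so that the AIMD mean was 9.08 times the vehicle mean. The log2 fold change was 3.22 with a standard error of 0.29, and without vehicle replicate 2 it was 3.44. Without the 4 mice with high small intestine markers it was 2.92 (standard error 0.34).

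Behind these values stood 1383 to 7215 reads on B4galnt2 per AIMD mouse and 91 to 1020 per vehicle-treated mouse. None of its 50-base windows occurred in transcripts of another gene. The antisense gene Gm11534, which overlaps it, did not exceed 0.452 FPKM, and the sources used here do not say whether reads were counted by strand. B4galnt2 made up 26.3% ± 7.65 (SD, n = 7) of the summed FPKM of the 10 genes in AIMD mice, and vehicle-treated mice had 3.93% ± 2.25 (SD, n = 8). Per 1000 FPKM of summed epithelial markers, B4galnt2 reached 13.9 to 39.0 FPKM in AIMD mice and 2.24 to 9.21 in vehicle-treated mice. The epithelial sums varied too little between mice for this ratio to make the groups overlap, so it is only a description.

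The neighbours of B4galnt2 on chromosome 11 were low in both groups. Gngt2, a G protein subunit gene 20209 bases away, had an FPKM of 1.87 in AIMD mice against 2.45 in vehicle-treated mice on average, and did not pass the test (log2 fold change -0.30, limma adjusted p = 0.183). Igf2bp1, an RNA-binding protein gene, averaged 0.341 and 0.468 FPKM and was below the filter, as were Gm11527, 4833417C18Rik, Gm11534 and Gm24725.

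The RefSeq promoters of B4galnt2 and C1galt1, the members that were higher in every AIMD mouse, are shown to compare the sequence around their RefSeq starts. Each runs from 250 bases before to 50 bases after the start in the RefSeq table of GRCm38.p6, which held promoters for 5 of the 10 genes. Capitals mark the GC box, GGGCGG on either strand, with overlapping matches run together.
B4galnt2: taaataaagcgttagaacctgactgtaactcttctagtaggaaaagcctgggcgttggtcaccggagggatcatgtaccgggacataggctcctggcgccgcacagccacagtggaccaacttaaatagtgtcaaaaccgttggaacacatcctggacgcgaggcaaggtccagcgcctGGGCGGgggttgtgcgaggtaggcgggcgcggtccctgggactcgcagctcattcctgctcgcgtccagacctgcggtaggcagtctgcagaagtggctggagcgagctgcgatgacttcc
C1galt1: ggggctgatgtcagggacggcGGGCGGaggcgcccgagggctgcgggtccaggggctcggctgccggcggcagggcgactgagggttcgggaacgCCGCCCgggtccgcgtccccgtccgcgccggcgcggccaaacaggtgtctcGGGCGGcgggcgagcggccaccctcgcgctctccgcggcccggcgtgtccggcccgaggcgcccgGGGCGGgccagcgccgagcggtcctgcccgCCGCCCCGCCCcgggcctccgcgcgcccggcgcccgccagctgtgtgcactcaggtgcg
The B4galnt2 window is chr11:95914822-95915121 on the minus strand, and the C1galt1 window is chr6:7844974-7845273 on the plus strand. In GENCODE M21 C1galt1 starts at 7844842, so its window lies inside the gene there. Most of the B4galnt2 window lies before the GENCODE start of that gene. The B4galnt2 window held 1 GC box, at base 180, and the C1galt1 window held 6. At least 1 GC box was present in 35.7% of all 32851 promoters in the table. The GC content was 59.0% for B4galnt2 and 82.7% for C1galt1, against a median of 52.7% over all promoters, and 99.6% of promoters had a lower GC content than that of C1galt1. The C1galt1 window held 52 CpG sites, the B4galnt2 window 21, and the median promoter 7. Neither window held CCAAT (in 37.4% of promoters), TATAAA (13.6%) or the E-box CACGTG (7.15%) on either strand. These letter matches are descriptions and not sites of binding.

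B4galnt1, which adds the same sugar to glycolipids and so makes the gangliosides GM2 and GD2, did not separate the groups. The gene is on chromosome 10, plus strand, from 127165225 to 127172330. Its FPKM was 26.5 in the lowest, 41.4 in the median and 50.9 in the highest AIMD mouse, and 20.9, 36.6 and 71.5 in vehicle-treated mice. The AIMD values lay inside the range of the vehicle-treated mice. This gave a log2 fold change of 0.08 with a standard error of 0.22. Vehicle replicate 2, the highest for B4galnt2, was also the highest for B4galnt1.

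Of the other terminal GalNAc, galactose and GlcNAc transferases, 4 of 7 listed genes were tested, 1 was higher and 1 was lower in AIMD mice. B4galnt3, which makes GalNAc-capped LacdiNAc chains, had an FPKM of 0.731 to 2.68 in AIMD mice and 0 to 0.665 in vehicle-treated mice. B4galnt3 passed the filter through 7 AIMD mice and 1 vehicle-treated mouse, that is through the group in which it is high, so its p in the filtered fit is not given. In the fit of all 24279 genes with no filter on low values it rose by 1.47 ± 0.21 (standard error) on the log2 scale (limma adjusted p = 0.000253). Its reads numbered 23 to 136 per AIMD mouse and 0 to 18 per vehicle-treated mouse. Its fold change depended on the scale, at 2.49 with a pseudocount of 0.1, 1.01 with a pseudocount of 1 and 3.23 from limma voom on recovered reads. A4galt, the synthase of the glycolipid Gb3, had an FPKM of 1.58 to 2.54 in AIMD mice and 2.96 to 7.67 in vehicle-treated mice. It fell, with a log2 fold change of -0.96 (limma adjusted p = 0.000721), and no AIMD mouse reached the lowest vehicle-treated mouse.

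The glycolipid backbone list had 7 of 8 genes tested, of which Neu1, a lysosomal sialidase, rose (log2 fold change 0.41, limma adjusted p = 0.0352) and none fell. With 1 mouse left out, the adjusted p of Neu1 in limma reached 0.0761, and the call was lost in 6 of 15 cases. The median log2 fold change of the list was 0.26, and 14.3% of its tested genes passed, beside 36.0% of all genes tested. Ugcg and St3gal5, which make the precursors on the way to gangliosides and were picked after their values were seen, had log2 fold changes of 0.29 (limma adjusted p = 0.312) and -0.28 (limma adjusted p = 0.093).

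C1galt1 is the core 1 synthase, which adds galactose to the first GalNAc. It is on chromosome 6, plus strand, from 7844842 to 7875687. The annotated genes Gm43961, on the same strand, and Gm43962 overlap it, and no values for them were used here. Its FPKM in AIMD mice was 12.6 in the lowest, 14.3 in the median and 17.7 in the highest mouse. In vehicle-treated mice it was 5.10, 6.21 and 7.90. The groups did not overlap, and the AIMD mean of 14.6 ± 1.96 (SD, n = 7) was 2.28 times the vehicle mean of 6.39 ± 0.871 (SD, n = 8). The log2 fold change was 1.13 with a standard error of 0.11, and leaving out any 1 mouse gave 1.08 to 1.17.

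C1galt1c1 encodes Cosmc, the chaperone without which the core 1 synthase does not fold. It is on chromosome X, minus strand, from 38630785 to 38635087, and it did not separate the groups. Its FPKM was 54.5 in the lowest, 75.9 in the median and 78.7 in the highest AIMD mouse, and 33.0, 63.5 and 163 in vehicle-treated mice. Vehicle replicate 5 held the value of 163, and both the lowest and the highest mouse were vehicle-treated. On the log2 scale the difference was 0.06 (standard error 0.23). In every mouse the chaperone gene thus stood well above the synthase gene per length, with the lowest C1galt1c1 value at 33.0 and the highest C1galt1 value at 17.7.

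B3gnt6 is the core 3 synthase, which competes for the same GalNAc as C1galt1. It is on chromosome 7, minus strand, from 98192417 to 98199481. Its FPKM was 1.06 in the lowest, 1.72 in the median and 2.69 in the highest AIMD mouse. In vehicle-treated mice it was 3.53, 5.59 and 7.24, so all 7 AIMD mice were below all 8 vehicle-treated mice. The AIMD mean of 1.77 ± 0.586 (SD, n = 7) was 0.310 times the vehicle mean of 5.72 ± 1.21 (SD, n = 8). This was a log2 fold change of -1.47 (standard error 0.17), from 30 to 71 reads per AIMD mouse and 75 to 230 per vehicle-treated mouse.

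The ratio of C1galt1 to B3gnt6 within a mouse was 5.94 in the lowest, 8.58 in the median and 12.3 in the highest AIMD mouse. In vehicle-treated mice it was 0.811, 1.02 and 1.98. Both synthase genes were thus near the same level per length in vehicle-treated mice, and B3gnt6 was higher than C1galt1 in 4 of 8 of them, while C1galt1 was the higher gene in all 7 AIMD mice.

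**Figure D2:**
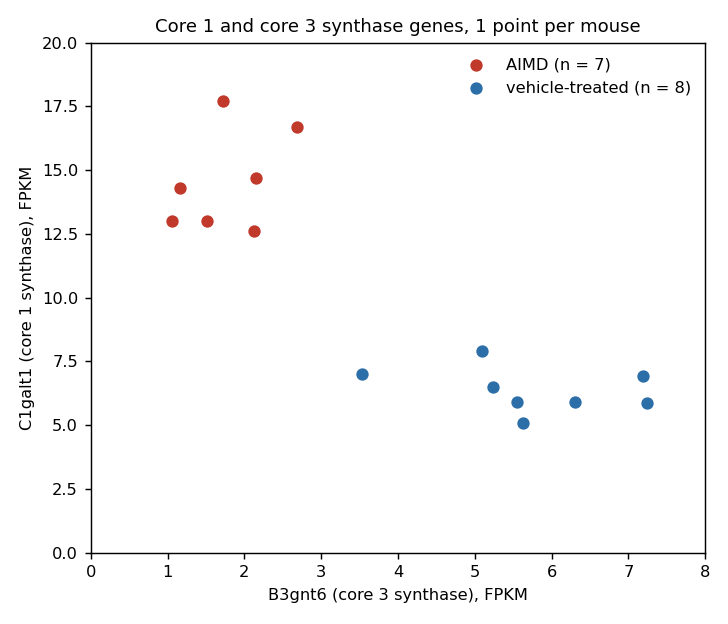
FPKM of C1galt1, the core 1 synthase gene (vertical axis), against that of B3gnt6, the core 3 synthase gene (horizontal axis), with 1 point per mouse. The 7 AIMD mice have C1galt1 of at least 12.6 and B3gnt6 of at most 2.69, and the 8 vehicle-treated mice have C1galt1 of at most 7.90 and B3gnt6 of at least 3.53.

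Gcnt1 and Gcnt3 make the core 2 branch, and Gcnt3, the mucin-type enzyme, also makes core 4 from core 3. Gcnt1 is on chromosome 19, minus strand, from 17326141 to 17372844. Its FPKM was 0.378 in the lowest, 1.14 in the median and 1.90 in the highest AIMD mouse, and 0.122, 0.424 and 0.877 in vehicle-treated mice. In 4 of 7 AIMD mice it was above the highest vehicle-treated mouse, and the rest overlapped. The log2 fold change was 0.66 (standard error 0.23) on the pseudocount of 0.5 and 1.11 from limma voom on recovered reads, at a depth of 40 to 122 reads per AIMD mouse and 5 to 32 per vehicle-treated mouse. Gcnt1 passed the filter through 6 AIMD and 3 vehicle-treated mice.

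Gcnt3, on chromosome 9, minus strand, from 70031496 to 70038088, had the highest mean of the 10 genes in both groups. Its FPKM was 143 in the lowest, 227 in the median and 290 in the highest AIMD mouse, and 159, 188 and 271 in vehicle-treated mice. The groups overlapped nearly throughout, and the log2 fold change was 0.09 (standard error 0.15).

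The enzymes that place the first GalNAc, upstream of both cores, were represented by 18 listed genes, of which 8 were tested, 4 fell and none rose. Their median log2 fold change was -0.22. Galnt4 averaged 60.2 FPKM in AIMD mice against 93.4 in vehicle-treated mice, and fell by 0.62 on the log2 scale (limma adjusted p = 0.00625). Galnt4 shares 7.38% of its 50-base windows with transcripts of other genes, chiefly Poc1b. Galnt7 and Galnt3 fell by 0.56 (limma adjusted p = 0.0203) and by 0.48 (limma adjusted p = 0.0267), and Galnt12, named after its value was seen, fell by 0.33 (limma adjusted p = 0.0437). Galnt3 did not pass the test without the 4 mice with high small intestine markers (limma adjusted p = 0.0739), and with AIMD replicate 2, AIMD replicate 6 or vehicle replicate 3 left out its adjusted p reached 0.0565.

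Of 22 genes listed under core and branch extension, 13 were tested, 3 rose and 3 fell, with a median log2 fold change of -0.13. The share that passed was 46.2%, beside 36.0% of all genes tested. Not all enzymes of this list act on mucin-type cores, so the counts describe the list. Gcnt2, which makes the branched I antigen, averaged 9.87 FPKM in AIMD mice against 4.91 in vehicle-treated mice (log2 fold change 1.02, limma adjusted p = 0.00987). B4galt5, a galactosyltransferase, averaged 3.10 and 1.47 FPKM (log2 fold change 0.86, limma adjusted p = 0.00244). Gcnt4, a further core 2 enzyme, rose by 0.60 (limma adjusted p = 0.0491). The galactosyltransferase genes B4galt6 and B4galt3 fell by 0.51 (limma adjusted p = 0.0346) and by 0.47 (limma adjusted p = 0.00861), and B3galnt2 fell by 0.27 (limma adjusted p = 0.0345). The calls of Gcnt4, B4galt6 and B3galnt2 depended on single mice: with 1 mouse left out, the adjusted p in limma reached 0.103 for Gcnt4, 0.0774 for B4galt6 and 0.0731 for B3galnt2, and the calls were lost in 12, 9 and 7 of 15 cases. B4galt6 (limma adjusted p = 0.268) and B3galnt2 (limma adjusted p = 0.07) also missed the threshold without the 4 mice with high small intestine markers. Members of 1 family thus moved in both directions, with B4galt5 higher and B4galt3 and B4galt6 lower in AIMD mice. B3gnt3, the most abundant of the list, averaged 74.9 and 62.5 FPKM and did not pass the test (limma adjusted p = 0.151).

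**Figure D3:**
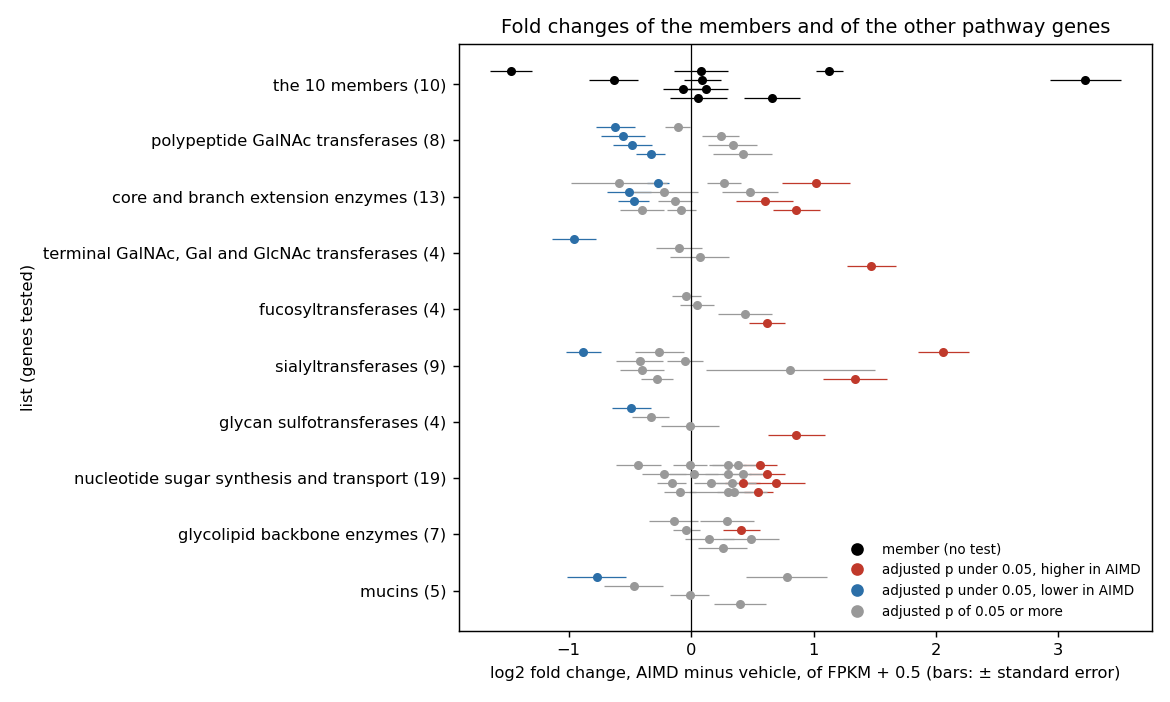
Log2 fold change of FPKM + 0.5, AIMD minus vehicle, with its standard error as a bar, for the 10 members (black, no test) and the 73 tested genes of 9 other pathway lists, 1 point per gene. B4galnt2, at 3.22, lies farthest to the right, and St3gal1, at 2.06, is the highest of the other genes. Of 8 tested polypeptide GalNAc transferases 4 passed the test, all of them lower in AIMD mice.

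Fut2 adds the fucose of the H antigen to epithelial glycans of the gut. It is on chromosome 7, minus strand, from 45648591 to 45666394, and 2.90% of its 50-base windows also occur in other genes, mostly in Sec1. Its FPKM was 5.98 in the lowest, 9.31 in the median and 15.3 in the highest AIMD mouse, and 10.5, 13.0 and 21.0 in vehicle-treated mice. In 5 of 7 AIMD mice it was below the lowest vehicle-treated mouse, and 2 vehicle-treated mice were above the highest AIMD mouse. The AIMD mean of 9.13 ± 3.40 (SD, n = 7) was 0.654 times the vehicle mean of 14.0 ± 3.49 (SD, n = 8), and the log2 fold change was -0.63 (standard error 0.20).

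Fut4, which adds the fucose of the Lewis X structure, was low in both groups. It is on chromosome 9, minus strand, from 14748320 to 14752393. Its FPKM was 0.978 to 1.87 in AIMD mice and 0.743 to 2.31 in vehicle-treated mice, and the difference was -0.07 (standard error 0.16) on the log2 scale.

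The other fucosyltransferases had 4 of 9 genes tested, of which only Fut8, the enzyme of core fucose on N-glycans, passed the test. It averaged 7.74 FPKM in AIMD mice against 4.92 in vehicle-treated mice (log2 fold change 0.62, limma adjusted p = 0.00494). Of these fucosyltransferases 25.0% of those tested passed, beside 36.0% of all genes tested. Enzymes and transporters of nucleotide sugars, the donors that all these transferases use, had 19 of 21 genes tested, of which 5 rose and none fell, with a median log2 fold change of 0.30. The share that passed was 26.3%, beside 36.0% of all genes tested, of which 19.4% were higher. Gmds and Tsta3 make GDP-fucose from GDP-mannose, and Fpgt makes it from salvaged fucose. Gmds averaged 41.9 FPKM in AIMD mice against 27.6 in vehicle-treated mice (log2 fold change 0.62, limma adjusted p = 0.00456). Tsta3 and Fpgt had log2 fold changes of 0.69 (limma adjusted p = 0.0332) and 0.56 (limma adjusted p = 0.00586). The call of Tsta3 was lost in 10 of 15 cases with 1 mouse left out, with an adjusted p of up to 0.0733 in limma. The other two risers, named after their values were seen, were Uap1 (0.55) and Gnpnat1 (0.42), which act in the making of UDP-GlcNAc. Ugp2, the most abundant of the list, averaged 260 and 216 FPKM and did not pass the test (limma adjusted p = 0.131; 0.0493 without vehicle replicate 5).

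St6galnac6 adds sialic acid to the inner sugars of glycolipids and of Lewis-type chains. It is on chromosome 2, plus strand, from 32599709 to 32620806. Its FPKM was 39.5 in the lowest, 58.6 in the median and 86.3 in the highest AIMD mouse, and 36.1, 51.2 and 85.4 in vehicle-treated mice. The ranges were nearly the same, and the log2 fold change was 0.12 (standard error 0.18).

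Of 19 other sialyltransferases, 9 were tested, 2 rose and 1 fell, and their median log2 fold change was -0.26. The share that passed was 33.3%, beside 36.0% of all genes tested. St3gal1, which puts sialic acid on the galactose of core 1, had an FPKM of 15.4 in the lowest, 17.4 in the median and 24.6 in the highest AIMD mouse. In vehicle-treated mice it was 2.64, 3.65 and 9.40, so the groups did not overlap. The log2 values of St3gal1 rose by 2.06 ± 0.21 (standard error, limma adjusted p = 2.17e-06). St3gal3, which sialylates galactose at the ends of longer chains, averaged 6.19 and 2.14 FPKM (log2 fold change 1.34, limma adjusted p = 0.000883). St6galnac4, which adds a second sialic acid to sialylated core 1, had an FPKM of 0.315 to 0.710 in AIMD mice and 1.05 to 2.47 in vehicle-treated mice. It fell by 0.88 on the log2 scale (limma adjusted p = 0.000179).

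St3gal4, a relative of St3gal3 and the gene of the list with the highest mean over all mice, did not pass the test with all mice (log2 fold change 0.81, standard error 0.69, limma adjusted p = 0.376). Its mean was carried by a few mice, since its median in vehicle-treated mice was 7.08 FPKM, below the 23.9 of St3gal5. The FPKM of St3gal4 in vehicle replicates 5, 7 and 8 was 52.9, 61.7 and 87.6, and in the other 5 vehicle-treated mice it lay between 2.08 and 7.26. In the same 3 mice Fabp6 was 1041, 1062 and 1718. Among AIMD mice St3gal4 ranged from 12.5 to 48.8, and the highest was replicate 6, in which Fabp6 was 225. Without these 4 mice St3gal4 was 2.01 ± 0.32 (standard error) higher in AIMD mice on the log2 scale (limma adjusted p = 0.000621).

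The glycan sulfotransferases had 4 of 9 genes tested. Chst4, which sulfates GlcNAc, rose, with an average FPKM of 5.25 in AIMD mice against 2.89 in vehicle-treated mice (log2 fold change 0.86, limma adjusted p = 0.00779). Chst1, which sulfates galactose, fell by 0.49 (limma adjusted p = 0.0266). Without the 4 mice with high small intestine markers the limma adjusted p was 0.0591 for Chst4 and 0.219 for Chst1, and without AIMD replicate 1 it was 0.0624 for Chst1. Gal3st1, the sulfotransferase of sulfatide and the most abundant of the list, averaged 7.43 and 9.55 FPKM and did not pass the test (limma adjusted p = 0.0882), but did without vehicle replicate 4 (limma adjusted p = 0.0419).

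The proteins that carry the glycans were measured through 5 tested mucins of 11 listed, with 1 lower. That is 20.0% of the tested mucins, beside 36.0% of all genes tested. Muc2, the main secreted mucin of the large intestine, had an FPKM of 28.4 to 44.1 in AIMD mice and 30.1 to 144 in vehicle-treated mice, with vehicle replicate 2 highest. It fell by 0.77 on the log2 scale (limma adjusted p = 0.019), with an adjusted p in limma of 0.0626 without the 4 mice with high small intestine markers. Muc3, a membrane mucin and the most abundant of the list, averaged 1561 and 926 FPKM (log2 fold change 0.78, limma adjusted p = 0.0764), and its adjusted p in limma was 0.021 without AIMD replicate 2, 0.0122 without vehicle replicate 8 and 0.0496 without the 4 mice with high small intestine markers. With the clock-gene axis (the main component of clock-gene expression within groups) as a covariate, the log2 fold change of Muc3 was again 0.78 and its limma adjusted p was 0.00814. Muc3a, listed beside Muc3 and named after its value was seen, averaged 25.4 and 37.2 FPKM. It did not pass the test (log2 fold change -0.47, limma adjusted p = 0.142). Of 9 tested goblet cell markers, Tff3 (named after its value was seen) was higher, Muc2 lower and 7 did not pass the test, and the summed goblet markers overlapped at 7028 to 13998 in AIMD mice and 3909 to 11784 in vehicle-treated mice.

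Of the 124 other pathway genes on all 9 lists, 123 were in the table, all but the mucin Muc17. Among these 73 were tested, of which 14 rose, 11 fell and 48 did not pass the test. B4galnt3, which the filter admitted through AIMD mice, was among the 14. The share that passed was 34.2%, beside 36.0% of all genes, and the median log2 fold change was 0.05, beside 0.01. The groups did not overlap for B4galnt3, A4galt, St3gal1 and St6galnac4. The 50 genes of the table that were not tested did not exceed 1.30 FPKM in any mouse. Some of them, such as Galnt2 and St6galnac1, named after their values were seen, were 0 in every mouse. Whether reads on these genes were counted at all cannot be told from the values.

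Whether the 10 genes also moved with the time of day was asked within the groups, a measure that the choice of the genes did not use. A clock-gene axis was taken as the first principal component of 16 clock genes, centred within each group, so that a positive value means higher Dbp, and it held 91.1% of their variance. The mice fell on either side of 0, with AIMD replicates 1 to 3 and vehicle replicates 1 to 4 below and the rest above. The study's own model accounted for time of sacrifice beside treatment, but the time of each mouse is not given in the sources used here. The fits between groups given here therefore leave it out, except where the clock-gene axis is a covariate. Among all genes tested, 23.3% had a slope on this axis with an adjusted p under 0.05. Of the 10 genes, B4galnt1 did, and Gcnt1 is set apart below because of how it passed the filter.

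Gcnt1 rose along the axis, with a slope of 0.113 log2 units per unit (standard error 0.025). Its FPKM was 0.378 to 0.838 in the 3 AIMD mice below 0 and 1.14 to 1.90 in the 4 above. In vehicle-treated mice it was 0.122 to 0.403 in the 4 below 0 and 0.444 to 0.877 in the 4 above. Within each group the mice of the 2 sides did not overlap, and on each side the ranges of the groups overlapped only below 0. Leaving out any 1 mouse gave slopes of 0.102 to 0.125. No vehicle-treated mouse below 0 reached the 0.5 FPKM of the filter, while all 4 AIMD mice above 0 did. Gcnt1 thus passed the filter largely on the side where it is high, so the p of its slope in all 15 mice is not given.

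B4galnt1 fell along the axis, with a slope of -0.097 (standard error 0.028, limma adjusted p = 0.0225). Its FPKM in vehicle-treated mice was 37.1 to 71.5 below 0 and 20.9 to 36.1 above. In AIMD mice it was 41.4 to 45.5 below 0 and 26.5 to 50.9 above, so the sides overlapped there. Its adjusted p in limma was 0.052 without vehicle replicate 1 and 0.0597 without vehicle replicate 2.

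All 4 mice with high small intestine markers lay above 0. Without them, over the same 11971 genes, B4galnt1 did not pass the test, with a slope in 11 mice of -0.070 (limma adjusted p = 0.231). The slope of Gcnt1 in these 11 mice was 0.112 (standard error 0.037). Its p is again not given, because the genes were those of the filter in all 15 mice. The slopes of the other 8 genes did not pass the test in all 15 mice. For B4galnt2 the slope was -0.061 (standard error 0.045, limma adjusted p = 0.33), and for C1galt1 and B3gnt6 it was 0.000 (standard error 0.017, limma adjusted p = 0.997) and 0.044 (standard error 0.025, limma adjusted p = 0.211).

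**Figure D4:**
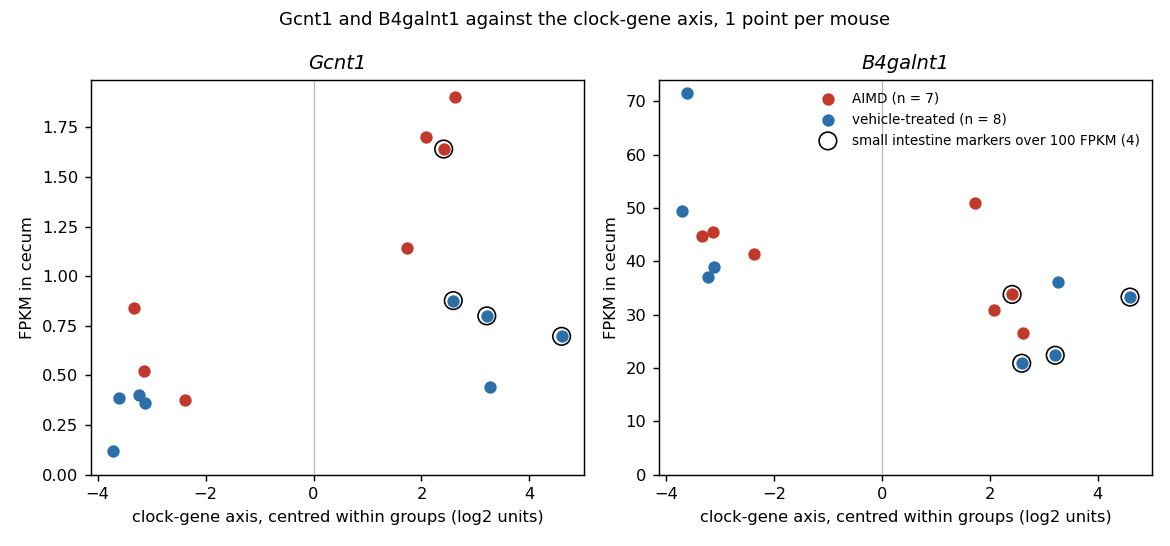
FPKM of Gcnt1 and B4galnt1 (vertical axes, from 0) against the clock-gene axis centred within groups (horizontal axes), 1 point per mouse, with circles around the 4 mice whose small intestine markers summed to over 100 FPKM. Gcnt1 is higher to the right of 0 in both groups (1.14 to 1.90 in AIMD mice, 0.444 to 0.877 in vehicle-treated mice), and B4galnt1 is lower to the right of 0 in vehicle-treated mice (20.9 to 36.1).

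By level per length, the mean FPKM in vehicle-treated mice ran from Gcnt3 (203) through C1galt1c1 (73.9), St6galnac6 (55.2), B4galnt1 (38.7), B4galnt2 (16.7), Fut2 (14.0), C1galt1 (6.39), B3gnt6 (5.72) and Fut4 (1.5) to Gcnt1 (0.512). Neighbours in this order stood in the same order in all 8 mice, except C1galt1c1 over St6galnac6 in 6, B4galnt2 over Fut2 in 4 and C1galt1 over B3gnt6 in 4. In AIMD mice B4galnt2 took the second place, below Gcnt3 in 6 of 7 mice and above C1galt1c1 in all 7. The rest of the order was that of the vehicle-treated mice, but for C1galt1, which stood above Fut2 in all 7 AIMD mice. C1galt1c1 was above St6galnac6, and at the low end B3gnt6 was above Fut4, and Fut4 above Gcnt1, in 5 of 7 AIMD mice.

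The genes whose standardised log2 profile over the 15 mice was nearest to that of B4galnt2 included Mapkapk5 (root mean square difference 0.2), Ankrd52 (0.210), Rragc (0.221) and Afg3l2 (0.229), among 11538 genes with a median difference of 1.398. For all 4 of these genes AIMD was higher without overlap, so the likeness is largely that of the groups. Among the other 9 members C1galt1 was the nearest, at a difference of 0.331 and rank 68, and B3gnt6 the farthest, at 1.931 and rank 11278.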

How the data were processed

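Cecal RNA of 15 mice was sequenced from poly-A selected, stranded libraries. The authors deposited 1 table of FPKM values by gene symbol. The submitters' notes name GRCm38, STAR, featureCounts and DESeq2, with no versions, and the FPKM of 24278 of 24279 genes above 0 came out as whole multiples of 1 read within 0.05, at the GENCODE M21 exon length for 68.7%. Of 45808 rows, 4 with a repeated symbol were left out, and 27 hold symbols turned into dates. Values were scaled by size factors (median of ratios over 13594 genes) and transformed as log2(FPKM + 0.5). The factor was 1.01 in every mouse, so this scaling did not change how mice compare. Genes at 0.5 FPKM or more in 7 or more mice were fitted with limma 3.58.1 (lmFit, eBayes with trend, R 4.3.3), two-sided, and called at a Benjamini-Hochberg adjusted p under 0.05. Treatment was the only factor of the main fit, while the study's model also held time of sacrifice. Nothing says which mice shared a cage, so the p-values treat mice as independent. They may be too small if mice of a cage resemble each other. The precision of low genes is limited by their reads.

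The members and lists were chosen with earlier results of these data known. The genes named are the 10 members, from each list the 3 with the largest rise, the 3 with the largest fall and the most abundant, the 5 nearest in profile and the 3 on either side of B4galnt2. A gene under this rule is not reported here. Alternatives were other scalings, pseudocounts, filters, a replicate block, a clock-gene covariate, limma voom on recovered reads and each mouse left out. Leaving out mice with summed small intestine markers over 100 FPKM and the clock slopes were added after seeing the data. The deviations of same-numbered mice correlated with r from -0.35 to 0.432 over 7 numbers, which does not settle whether the numbers pair mice. On the clock-gene axis, replicates 1 to 3 lay below 0 and replicates 5 to 7 above 0 in both groups. Replicate 4 lay on different sides. The fit was tested on simulated data. The rest was done in Python 3.11.15 (numpy 2.4.6; pandas 2.3.3; matplotlib 3.10.9). No protein sequences were used here.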

Additional observations from a re-analysis of the deposited data

Results flagged for a closer look

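Each of the 10 genes was examined in each group for a mouse that stood apart, by the gap of the highest or lowest mouse to its nearest neighbour over the range of the group. Of 20 groups 2 had such a mouse, and chance gives about 1 in 20. B4galnt2 was 43.8 FPKM in vehicle replicate 2, while the other 7 vehicle-treated mice lay between 9.93 and 16.8, a gap of 0.799 of the range against a critical value of 0.526. C1galt1c1 was 163 FPKM in vehicle replicate 5, while the others lay between 33.0 and 77.6, a gap of 0.658 of the range.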

How the results depend on the processing

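The log2 fold change of B4galnt2 was 3.10 to 3.44 when any 1 mouse was left out and 2.92 to 3.30 under the other alternatives, lowest without the 4 mice with high small intestine markers. With a replicate block over 7 numbers and without vehicle replicate 8 it was 3.22, and the block left 16 other pathway genes higher and 11 lower. The counts of 14 higher and 11 lower pathway genes ranged from 10 to 18 and from 8 to 14 over all alternatives, and no result changed its direction past the threshold. Of 27 named pathway genes tested, 14 kept their call under every alternative that tested them and 13 did not. Gcnt4, Tsta3, B4galt6, B3galnt2 and Neu1 changed most often, in 14 of 24 alternatives for Gcnt4 and in 12, 11, 9 and 7 of 25 for the others. Chst4 and Muc2 lost their calls, and St3gal4 gained one, only without the 4 mice with high small intestine markers. The cause was not tested. In the fold-change fit without these mice, where the filter was applied anew, Gcnt1 and B4galnt3 fell below it.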
